A study of Mus musculus with 24 samples.

Results

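RNA sequencing of neural progenitor cells (NPCs) carrying a slow form of RNA polymerase II (RNAPII) was compared with that of wild-type (WT) NPCs. The comparison was taken as the 3 slow/slow and the 3 WT samples that the labels place at the NPC stage, 6 of the 24 samples of the series. The slow/slow cells are mouse embryonic stem cells (ESCs) and their progeny that are homozygous for the R749H substitution in Polr2a, the gene of the largest, catalytic subunit of RNAPII, and the WT cells are the matching line without it. Both had been differentiated for 7 days as an adherent monolayer in the serum-free medium N2B27, plated at 10000 cells per cm2 for WT and 30000 cells per cm2 for slow/slow cells, so that genotype and seeding density cannot be told apart. The series also holds ESCs, PSA-NCAM-positive cells and neurons of both genotypes. The study's methods describe 3 independent differentiation experiments, without naming separate clones, so that the tests measure the spread between these experiments. Genes on chromosomes 8, 15 and Y, where levels shifted between the lines over whole chromosomes, were left out of the list counts, medians and summed levels. This does not remove effects of such line differences on other genes, which cannot be told apart from those of the substitution.

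Neural induction in such monolayers proceeds from naive pluripotent cells, which depend on factors such as Nanog, Esrrb and Tfcp2l1, through a formative, epiblast-like state to neuroepithelium marked by Sox1, Sox3 and Pax6. The neuroepithelium then acquires a position: Wnt, FGF and retinoic acid signals give it posterior identity and switch on Hox genes, Hedgehog signals give ventral identity, and BMP and Wnt signals give dorsal identity. The rate at which RNAPII elongates sets the time for which a splice site is alone before its competitor is transcribed, and a slower polymerase can raise or lower the inclusion of an exon.

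The 6 libraries held between 39817209 and 77285813 counts, with the deepest and the shallowest both among the slow/slow samples. Of 16627 genes tested in edgeR's quasi-likelihood test, 9423 (56.7%) passed a false discovery rate (FDR, Benjamini-Hochberg) of 0.05, and off chromosomes 8, 15 and Y 8381 of 15118 (55.4%) did, 4330 of them (28.6%) higher and 4051 (26.8%) lower in slow/slow NPCs. With a minimum change of 2-fold added, 1293 (8.55%) were higher and 1844 (12.2%) lower. The genotype effect differed between NPCs and ESCs for 4091 of the 16627 genes (24.6%). The median log2 change over these 15118 genes was 0.01, against 0.49 on chromosome 8 and -0.57 on chromosome 15, while 4 of the 5 Y-linked genes tested were lower. The samples of the 2 genotypes did not overlap for 11191 of the 15118 genes (74.0%), so that absence of overlap is the usual case here. Levels are in CPM, a library's counts scaled to a fixed total with TMM factors, given for samples 1 to 3 of a genotype in that order, and changes are log2 of slow/slow over WT with the standard error (SE). The size of a log2 change is uncertain where a genotype stands near 0 CPM, on few reads. In bulk RNA, fewer cells of a type and less RNA per cell cannot be told apart.

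The alleles of Polr2a (ENSMUSG00000005198, chromosome 11, 69733997 to 69758637, GRCm38) are counted together, so that its level does not check the genotype. Polr2a stood at 277, 335 and 306 CPM in WT and 380.4, 364 and 380.2 CPM in slow/slow samples (log2 change 0.29 ± 0.16, FDR 0.135). The slow/slow samples lay above the WT samples, but the difference did not pass the threshold in this fit. It passed with the NPC samples fitted alone (FDR 0.00133), without the PSA-NCAM-positive samples (FDR 0.000682) and with a replicate block (FDR 0.0231).

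The label NPC was checked against the marker genes of NPCs and of pluripotent cells. At day 7 the WT samples still held pluripotency transcripts. Pou5f1, the core pluripotency factor Oct4, averaged 1760.3 CPM ± 187 in WT ESCs (SD, n = 3 here and below) and 639 CPM ± 20.04 in WT NPCs, and Nanog averaged 1039 CPM ± 5.77 and 384 CPM ± 3.31. In neurons of the WT line Pou5f1 averaged 82.8 CPM ± 14.97. The neuroectodermal factor Pax6 had reached 4.297 CPM ± 0.297 in WT NPCs against 0.187 CPM ± 0.0356 in WT ESCs, and the radial glial fatty-acid-binding protein gene Fabp7 was at 0.242 CPM ± 0.1603, against 0.207 CPM ± 0.116 in ESCs and 676 CPM ± 67.7 in neurons. The WT samples labelled NPC thus held high pluripotency transcripts beside low Pax6, with Fabp7 and Hes5 below 1 CPM. Progenitor markers were not all low. Nes and Sox2, the latter shared with pluripotent cells, stood higher, as given below. Of the 21 neural progenitor list members in the table, 17 averaged at least 1 CPM in WT NPCs. In slow/slow NPCs Pax6 reached 40.9 CPM ± 3.96, with Pou5f1 still at 736 CPM ± 48.2. Sox1 was not analysed here.

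Gene lists for lineage, position and signalling were then compared between the genotypes, with members on chromosomes 8, 15 and Y left out. The plot of all lists shows naive pluripotency shifted down and neural progenitor, proneural, hindbrain and Hox genes shifted up, while most signalling lists moved in both directions.

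**Figure D1:**
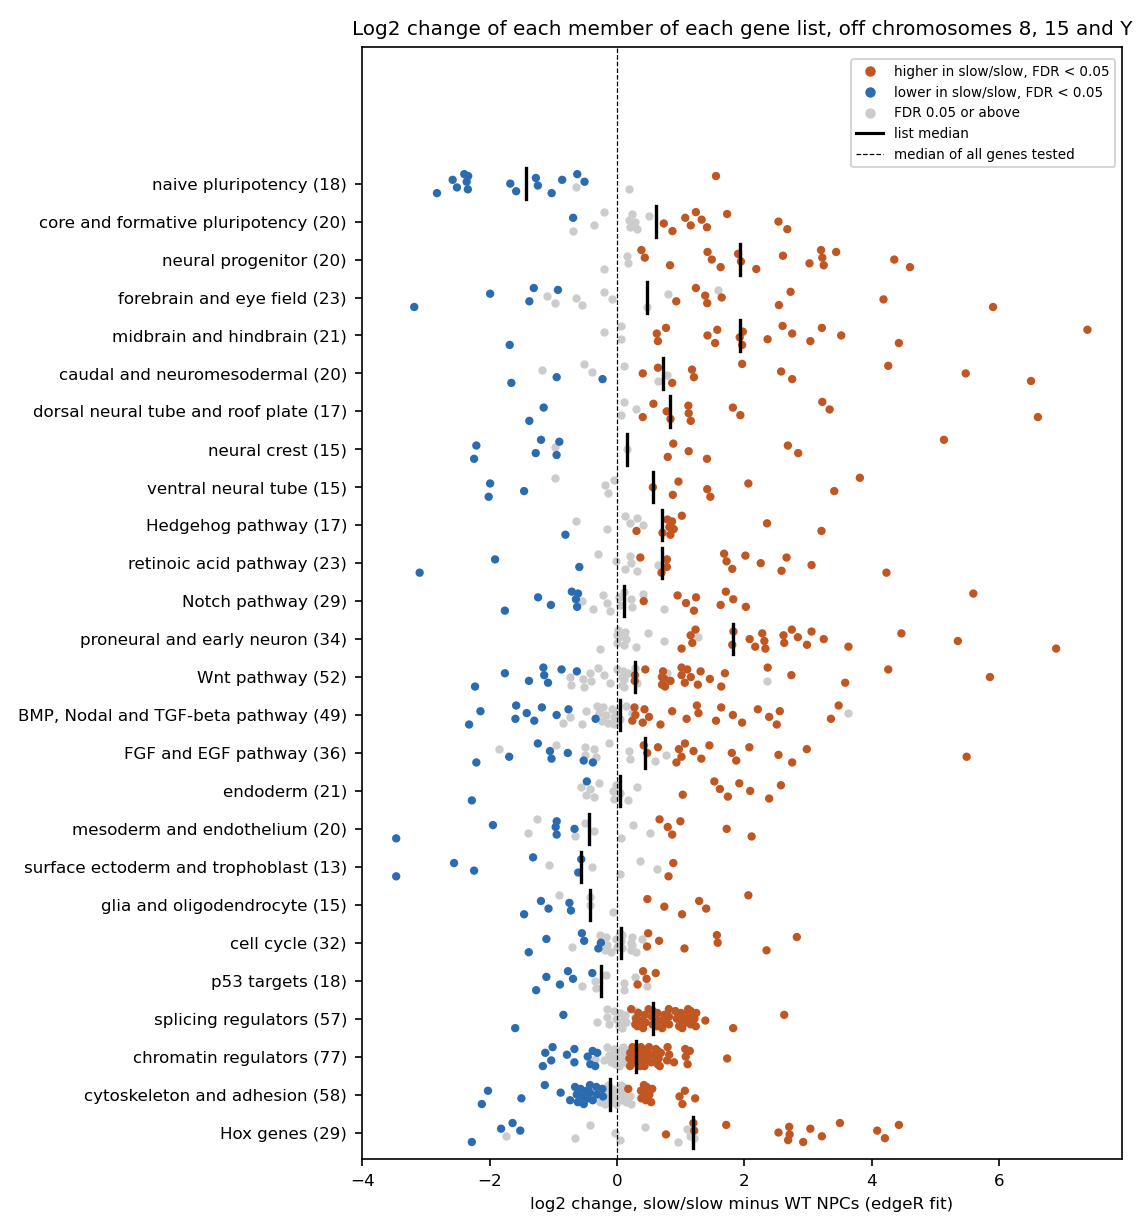
Log2 change, slow/slow minus WT NPCs, of each tested member of each gene list (rows, with the number of members plotted); colour gives the direction of genes under an FDR of 0.05 and grey the others. List medians (black bars) run from -1.43 for naive pluripotency to 1.93 for midbrain and hindbrain and 1.92 for neural progenitor genes, against 0.01 for all genes tested (dashed line).

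Naive pluripotency genes were lower in slow/slow NPCs. Of the listed genes, 1 of 18 were higher and 15 lower (median log2 change -1.43), and the summed level of the list was 2641 to 2688 CPM in the WT samples and 917 to 1042 CPM in the slow/slow samples. Nanog was at 387, 380.4 and 386 CPM in WT and 125, 142 and 119 CPM in slow/slow samples (log2 change -1.58 ± 0.14, FDR 3.00e-08). Every slow/slow value was below every WT value, as it was for the other falling genes named here. Tcfcp2l1, now called Tfcp2l1, a naive-state factor downstream of LIF, stood at 269, 291 and 274 CPM in WT and 42.6, 37.9 and 37.1 CPM in slow/slow samples (log2 change -2.82 ± 0.26, FDR 2.68e-08). Esrrb, an orphan nuclear receptor of the naive network, went from 478 to 93.1 CPM (log2 change -2.36 ± 0.13, FDR 5.09e-11). Tbx3 (191 to 31.9 CPM, log2 change -2.58 ± 0.23, FDR 2.08e-08), which sustains naive self-renewal, moved alike. Prdm14, which represses DNA methyltransferases in naive cells, fell as well (16.6 to 3.15 CPM, log2 change -2.40 ± 0.28, FDR 8.48e-07), and so did Spp1, which encodes the secreted protein osteopontin (275 to 48.1 CPM, log2 change -2.51 ± 0.13, FDR 1.97e-11). The single listed member that rose was Gdf3, a TGF-beta family ligand (34.95 to 103 CPM, log2 change 1.56 ± 0.18, FDR 7.72e-07), chosen for mention after its values were seen.

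Core and formative pluripotency genes did not follow the naive ones. Of this list, 10 of 20 were higher and 1 lower (median log2 change 0.62), and its summed level was 3437 to 3497 CPM in the WT samples and 4883 to 5362 CPM in the slow/slow samples. Pou5f1 stood at 659.7, 619.8 and 637 CPM in WT and 791, 701 and 716 CPM in slow/slow samples (log2 change 0.20 ± 0.22, FDR 0.449), and Sox2, shared by pluripotent and neural cells, at 250.1, 235 and 238 CPM and 215, 209 and 204 CPM (log2 change -0.20 ± 0.09, FDR 0.0728). Neither difference passed the threshold, although that of Sox2 passed under 6 other settings (FDR 0.000872 to 0.0315) and that of Pou5f1 with the NPC samples alone (FDR 0.01). Genes that mark the exit from the naive state were higher. Dnmt3b, the de novo DNA methyltransferase that rises on leaving the naive state, was at 256, 259.7 and 258 CPM in WT and 898, 873 and 798 CPM in slow/slow samples (log2 change 1.73 ± 0.34, FDR 0.000215). Fgf5, a classic epiblast marker, stood at 1.68, 2.13 and 1.51 CPM and 12.2, 9.59 and 9.12 CPM (log2 change 2.54 ± 0.20, FDR 5.61e-09). For both genes the lowest slow/slow sample was well above the highest WT sample. Lin28b, an RNA-binding protein that blocks let-7 maturation, rose from 16.3 to 104 CPM (log2 change 2.68 ± 0.15, FDR 4.45e-11), and Foxd3, a forkhead factor of the epiblast and later of the neural crest, from 10.01 to 26.7 CPM (log2 change 1.41 ± 0.26, FDR 0.000123).

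Neural progenitor genes were higher in slow/slow NPCs. Of the listed genes, 17 of 20 were higher and 0 lower (median log2 change 1.92), and the summed level was 633 to 666 CPM in the WT samples and 1101 to 1350.1 CPM in the slow/slow samples. Pax6 was at 4.18, 4.07 and 4.63 CPM in WT and 36.4, 43.8 and 42.4 CPM in slow/slow samples (log2 change 3.25 ± 0.26, FDR 4.44e-09). Sox3, a SoxB1 factor of the early neuroepithelium, stood at 3.02, 3.1995 and 3.52 CPM and 29.9, 38.9 and 37.4 CPM (log2 change 3.44 ± 0.41, FDR 9.15e-07). The ranges of the genotypes were far apart for both genes. Nes, the intermediate filament gene of neural progenitors, was at 34.1, 32.9 and 32.3 CPM in WT and 83.6, 80.5 and 115 CPM in slow/slow samples (log2 change 1.49 ± 0.13, FDR 2.19e-08), with slow/slow sample 3 the highest. Fabp7 stood at 0.395, 0.0755 and 0.255 CPM and 3.53, 5.799 and 7.74 CPM (log2 change 4.60 ± 0.73, FDR 2.82e-05). Its WT values rest on few reads, and the 3 slow/slow samples differed among themselves more than for Pax6. Pou3f2, a POU factor that drives neuronal genes, was at 0.104, 0.0453 and 0.05999 CPM in WT and 0.634, 1.29 and 2.44 CPM in slow/slow samples (log2 change 4.35 ± 0.60, FDR 5.88e-06). Its WT values also rest on few reads, so the size of the change is uncertain. Cdh2, which encodes the N-cadherin that replaces E-cadherin in the neural plate, rose from 14.3 to 117 CPM (log2 change 3.02 ± 0.37, FDR 1.37e-06). The 3 tested members that did not pass the threshold were Sox2, Sox9 (2.41 to 2.705 CPM) and the surface glycoprotein gene Prom1 (42.04 to 47.4 CPM).

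**Figure D2:**
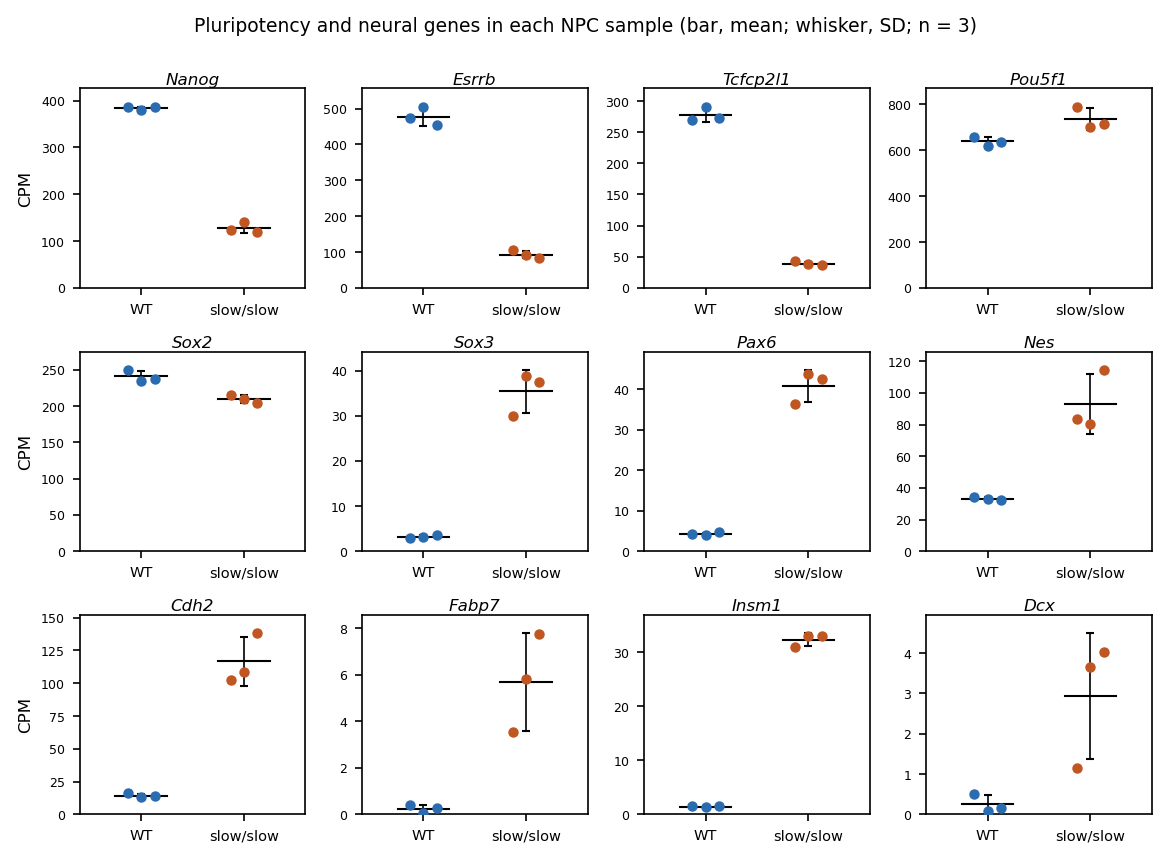
Level of 12 pluripotency, progenitor and early neuron genes in each of the 3 WT and 3 slow/slow NPC samples (points; y axes in CPM from 0, with a separate scale for each gene); bars give the mean and whiskers the SD. Nanog, Esrrb and Tcfcp2l1 were lower and Sox3, Pax6, Nes, Cdh2 and Fabp7 higher in each slow/slow sample than in any WT sample, whereas Pou5f1 and Sox2 did not pass the test.

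Proneural and early neuron genes were also higher. Of the list, 22 of 34 were higher and 0 lower (median log2 change 1.82), and the summed level was 116 to 128 CPM in the WT samples and 291 to 337 CPM in the slow/slow samples. Insm1, a zinc-finger factor of newborn neurons and basal progenitors, stood at 1.48, 1.39 and 1.51 CPM in WT and 30.9, 33.1 and 32.98 CPM in slow/slow samples (log2 change 4.47 ± 0.27, FDR 1.37e-10). Insm1 was tightly grouped in both genotypes, whereas the doublecortin gene Dcx, a microtubule protein of migrating neurons, was spread, at 0.499, 0.0755 and 0.165 CPM in WT and 1.15, 3.65 and 4.02 CPM in slow/slow samples (log2 change 3.64 ± 0.79, FDR 0.0006401). The neurofilament gene Nefm rose from 0.461 to 3.63 CPM (log2 change 2.98 ± 0.43, FDR 9.88e-06). Neurod4 was at 0.0624, 0.0453 and 0.04499 CPM in WT and 0.7504, 3.36 and 2.37 CPM in slow/slow samples (FDR 9.03e-07), and Neurog2, another proneural factor, at 0.0416, 0.0151 and 0.04499 CPM and 0.168, 0.549 and 0.345 CPM (FDR 0.000196). No fold is given for these, because the WT samples held at most 3 and 3 reads. Genes of later neurons were not all part of the rise: Mtap2, now Map2, the dendritic microtubule protein, stood at 8.97, 8.21 and 8.83 CPM and 7.58, 9.98 and 8.77 CPM (log2 change 0.01 ± 0.24, FDR 0.9704), and Rbfox3, which encodes the neuronal antigen NeuN, was below 1 CPM in both genotypes. Tubb3, the beta-tubulin gene of early neurons, lies on chromosome 8 and was set apart. In this list 14 members stayed below 1 CPM in both genotypes.

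Position along the anterior-posterior axis was examined with 4 lists. Midbrain and hindbrain genes were mostly higher. Of them, 17 of 21 were higher and 1 lower (median log2 change 1.93), and the summed level was 113 to 115 CPM in the WT samples and 312 to 362 CPM in the slow/slow samples. Egr2, the segmentation gene Krox20 of rhombomeres 3 and 5, was at 0.499, 0.407 and 0.495 CPM in WT and 4.67, 4.15 and 7.32 CPM in slow/slow samples (log2 change 3.52 ± 0.35, FDR 7.70e-08). Hoxb1, the gene of rhombomere 4, was at 2.68, 3.02 and 2.59 CPM in WT and 22.04, 26.7 and 28.6 CPM in slow/slow samples (log2 change 3.22 ± 0.52, FDR 3.29e-05), and Hoxa2 at 0.749, 0.619 and 0.585 CPM and 11.7, 14.7 and 15.4 CPM (log2 change 4.43 ± 0.35, FDR 5.01e-09). The genotypes did not overlap for these 3 genes, as the rule that named them required. En2, of the midbrain-hindbrain boundary, rose from 1.96 to 11.95 CPM (log2 change 2.6 ± 0.30, FDR 6.17e-07), and Gbx2, which sets the hindbrain side of that boundary, from 30.6 to 119 CPM (log2 change 1.97 ± 0.55, FDR 0.00502). Lmx1b, a LIM homeobox gene of the isthmus and dorsal neural tube, went the other way, from 16.6 to 5.15 CPM (log2 change -1.68 ± 0.17, FDR 1.20e-07).

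Forebrain and eye-field genes moved in both directions. Of this list, 9 of 23 were higher and 5 lower (median log2 change 0.47), and 13 of the 23 members stayed below 1 CPM in both genotypes. Nr2f1, the nuclear receptor gene COUP-TFI of caudal forebrain and hindbrain, stood at 1.89, 1.86 and 1.1998 CPM in WT and 7.79, 10.95 and 14.02 CPM in slow/slow samples (log2 change 2.73 ± 0.22, FDR 5.61e-09), without overlap. Six6 (0.0628 to 3.797 CPM, log2 change 5.91 ± 0.47, FDR 4.35e-08), an eye-field homeobox gene, and Fezf2 (0.05899 to 1.15 CPM, log2 change 4.19 ± 0.53, FDR 2.02e-06), a forebrain zinc-finger gene, rose from below 0.1 CPM. Both rest on few WT reads, so the size of these changes is uncertain. Emx1, a marker of the dorsal telencephalon, fell, from 0.894, 1.27 and 0.8998 CPM in WT to 0.129, 0.0955 and 0.0986 CPM in slow/slow samples (log2 change -3.18 ± 0.53, FDR 4.60e-05). Six3, an early anterior gene, did not change detectably at its level of 0.359 to 0.336 CPM (log2 change -0.07 ± 0.52, FDR 0.921).

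Caudal and neuromesodermal genes rose and fell. Of the list, 11 of 20 were higher and 3 lower (median log2 change 0.72). Nkx1-2, a homeobox gene of the caudal epiblast where spinal cord progenitors arise, was at 0.104, 0.0755 and 0.04499 CPM in WT and 5.55, 7.47 and 7.197 CPM in slow/slow samples (log2 change 6.5 ± 0.62, FDR 5.60e-08). Sp8, a zinc-finger gene downstream of Wnt and FGF signals, was at 0.832, 0.724 and 0.705 CPM and 29.7, 35.3 and 35.5 CPM (log2 change 5.48 ± 0.20, FDR 3.41e-13). Wnt8a, a Wnt ligand of the posterior epiblast, stood at 4.16, 4.04 and 3.45 CPM and 67.1, 81.4 and 74.7 CPM (log2 change 4.26 ± 0.66, FDR 2.17e-05). For each, the WT samples were all low and the slow/slow samples close together. The WT values of Nkx1-2 rest on few reads, so the size of its change is uncertain. The mesodermal members did not share this size of change: T, or brachyury, stayed below 1 CPM (0.541, 0.438 and 0.375 CPM in WT and 0.763, 0.811 and 0.887 CPM in slow/slow samples, log2 change 0.87 ± 0.24, FDR 0.00431), Tbx6 fell from 2.13 to 1.103 CPM (log2 change -0.95 ± 0.37, FDR 0.0369), and Msgn1 was near 0 in both genotypes. Cdx1, a caudal homeobox gene induced by Wnt and retinoic acid, fell from 5.68 to 1.82 CPM (log2 change -1.66 ± 0.21, FDR 1.46e-06), and Cdx2 did not pass the threshold (log2 change -0.40 ± 0.18, FDR 0.0617).

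Hox genes, whose order along each cluster mirrors the order of their expression along the body axis, were higher in the Hoxa and Hoxb clusters. Off chromosome 15, 15 of 29 were higher and 4 lower (median log2 change 1.20), and the summed level was 68.3 to 71.8 CPM in the WT samples and 190.4 to 226 CPM in the slow/slow samples. Hoxa10 (0.437, 0.573 and 0.555 CPM in WT and 8.54, 10.1 and 8.18 CPM in slow/slow samples, log2 change 4.09 ± 0.59, FDR 9.33e-06) and Hoxb8 (0.166, 0.151 and 0.17996 CPM and 2.15, 3.32 and 3.89 CPM, log2 change 4.21 ± 0.75, FDR 9.94e-05), which pattern the trunk, were among the largest rises, with Hoxa9 from 0.3599 to 4.13 CPM (log2 change 3.50 ± 0.55, FDR 2.59e-05). The 4 falls were at the far 5′ ends of Hoxa and Hoxb and in Hoxd. They were Hoxa13 (0.3196 to 0.0694 CPM, -2.28 on the log2 scale), Hoxb13 (1.51 to 0.415 CPM, -1.82), Hoxd8 (2.97 to 1.03 CPM, -1.52) and Hoxd9 (2.402 to 0.767 CPM, -1.64). Of the 39 Hox genes in the table, 17 stayed below 1 CPM in both genotypes, among them 7 of the Hoxc and 6 of the Hoxd cluster.

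**Figure D3:**
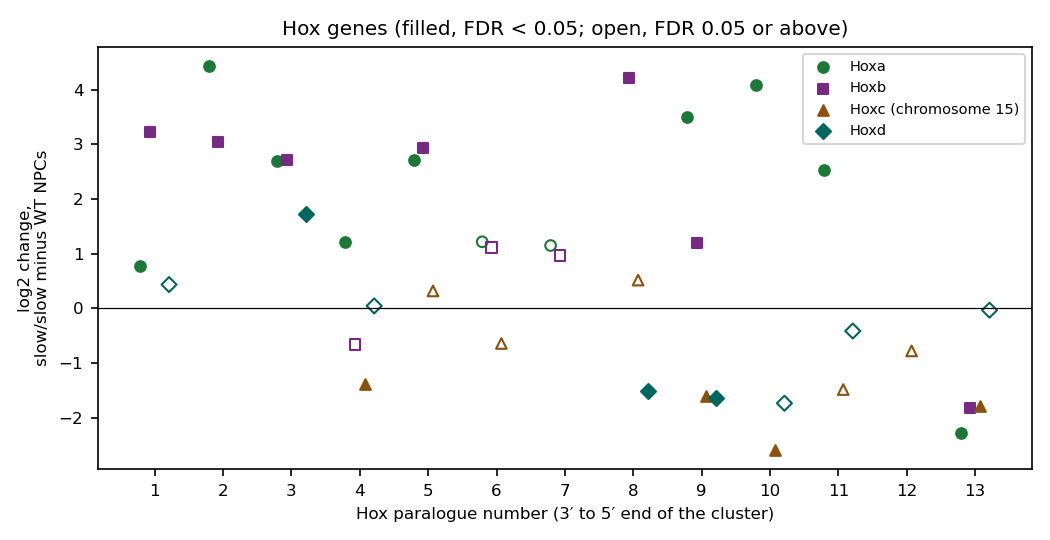
Log2 change, slow/slow minus WT NPCs, of each Hox gene tested (y axis) against its paralogue number (x axis), by cluster; filled symbols passed an FDR of 0.05. Hoxa and Hoxb genes of groups 1 to 3 lie between 0.77 and 4.43, and the 13th paralogues of Hoxa and Hoxb lie below 0; Hoxc genes lie on chromosome 15.

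Dorsal genes of the neural tube were mostly higher. Of the dorsal list, 12 of 17 were higher and 2 lower (median log2 change 0.84), and its summed level was 120.4 to 126 CPM in the WT samples and 307 to 342 CPM in the slow/slow samples. Its largest rise was that of Olig3 (ENSMUSG00000045591, chromosome 10, 19356533 to 19358604, GRCm38), a bHLH factor of dorsal interneuron progenitors in hindbrain and spinal cord, at 0.707, 0.7999 and 0.795 CPM in WT and 67.8, 81.4 and 76.9 CPM in slow/slow samples (log2 change 6.61 ± 0.48, FDR 1.70e-09). Zic1, a dorsal zinc-finger factor, was at 3.35, 2.898 and 2.38 CPM in WT and 19.5, 27.1 and 33.99 CPM in slow/slow samples (log2 change 3.23 ± 0.46, FDR 7.21e-06). The WT samples were below 4 CPM for both genes, and Zic1 varied more among the slow/slow samples. Msx3 (0.302 to 3.07 CPM, log2 change 3.34 ± 0.28, FDR 1.13e-08) and Pax7 (0.522 to 2.02 CPM, log2 change 1.94 ± 0.35, FDR 0.000112), homeobox genes of the dorsal neural tube, also rose, as did Pax3 (3.15 to 6.896 CPM, log2 change 1.13 ± 0.29, FDR 0.00251). Gsx1, a gene of the intermediate to dorsal domain, fell from 2.68 to 1.21 CPM (log2 change -1.15 ± 0.42, FDR 0.0241).

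In the ventral list 8 of 15 were higher and 3 lower (median log2 change 0.56), at a summed level of 28.8 to 31.9 CPM in the WT samples and 28.3 to 29.4 CPM in the slow/slow samples. The defining ventral genes were near 0: Nkx2-2 was at 0.104, 0.0604 and 0.04499 CPM in WT and 0.233, 0.191 and 0.0986 CPM in slow/slow samples, with overlapping genotypes (FDR 0.0108), and Olig2, the motor neuron progenitor factor, at 0, 0.0453 and 0.05999 CPM and 0.129, 0.143 and 0.246 CPM (FDR 0.0318). No fold is given for them, since the most reads in a WT sample were 5 and 4. Foxa2, the floor plate and endoderm gene, was at 8.42, 9.18 and 8.44 CPM and 9.69, 7.899 and 7.69 CPM and did not differ detectably (log2 change -0.04 ± 0.41, FDR 0.943). Prdm12, of the p1 interneuron domain, rose from 0.103 to 1.14 CPM (log2 change 3.41 ± 0.38, FDR 3.53e-07), while Foxj1, which drives motile cilia as in the floor plate, fell from 9.39 to 2.32 CPM (log2 change -2.01 ± 0.51, FDR 0.00229). Foxn4 (log2 change 0.88 ± 0.31, FDR 0.0228) and Prdm8 (log2 change 0.97 ± 0.33, FDR 0.0166), of ventral interneuron domains, passed narrowly. Foxn4 lost its call without WT 1, WT 3 or slow/slow 3 (FDR up to 0.0642) and Prdm8 without WT 2, slow/slow 2 or slow/slow 3 (FDR up to 0.0814). Olig2 lost it without WT 1, WT 2 or slow/slow 3 (FDR up to 0.101), and Nkx2-2 without WT 3 or slow/slow 1 (FDR up to 0.0951).

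Neural crest genes rose and fell in like numbers. In their list 7 of 15 were higher and 6 lower (median log2 change 0.15). The median moved to 0.03 without slow/slow 3, 0.045 without WT 1, 0.23 without WT 3 and 0.25 without slow/slow 2. Tcfap2b, or Tfap2b, an AP-2 factor of crest and dorsal interneurons, stood at 0.333, 0.423 and 0.285 CPM in WT and 9.096, 12.6 and 15.3 CPM in slow/slow samples (log2 change 5.13 ± 0.29, FDR 5.75e-11), and Ednrb, an endothelin receptor of crest cells, at 1.93, 1.54 and 1.36 CPM and 7.97, 10.4 and 16.4 CPM (log2 change 2.85 ± 0.35, FDR 1.29e-06). Both sets of slow/slow samples lay above all WT samples, with sample 3 the highest. Zeb2, a repressor of E-cadherin needed in neural and crest cells, rose from 4.399 to 28.2 CPM (log2 change 2.68 ± 0.20, FDR 2.35e-09). The falling members were Tcfap2c, or Tfap2c, an AP-2 factor of germ and trophoblast cells too (81.7 to 17.3 CPM, log2 change -2.24 ± 0.40, FDR 8.64e-05), Erbb3, Ets1, Snai2, Mitf and Ngfr, with log2 changes between -2.21 and -0.90. Sox10, which defines migrating crest, lies on chromosome 15 and stood at 3.71 to 1.88 CPM (log2 change -0.97 ± 0.36, FDR 0.0259).

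Hedgehog signalling, in which the ligand Shh relieves the block that the receptor Ptch1 puts on Smo and thereby activates Gli factors, gave a mixed picture. In its list 10 of 17 were higher and 1 lower (median log2 change 0.72). The ligand gene Shh was at 0.104, 0 and 0.05999 CPM in WT and 0.4399, 0.406 and 0.616 CPM in slow/slow samples (FDR 0.000218), on at most 5 reads in a WT sample. The co-receptor Boc rose from 15.9 to 32.3 CPM (log2 change 1.02 ± 0.20, FDR 0.000308), Smo from 68.5 to 121 CPM (log2 change 0.82 ± 0.13, FDR 2.37e-05), and Gli3, mainly a repressor, from 36.7 to 66.8 CPM (log2 change 0.87 ± 0.22, FDR 0.00234). Disp2, a Dispatched family gene, rose from 0.358 to 1.89 CPM (log2 change 2.36 ± 0.50, FDR 0.000487). Of the genes that Hedgehog signalling itself induces, Ptch1 did not pass (55.9, 55.3 and 52.5 CPM in WT and 67.4, 61.95 and 58.5 CPM in slow/slow samples, log2 change 0.20 ± 0.18, FDR 0.349; FDR 0.0128 with the NPC samples alone and 0.0489 with a replicate block), and Gli1 fell (23.4, 22.8 and 22.4 CPM and 13.5, 13.3 and 12.4 CPM, log2 change -0.81 ± 0.10, FDR 8.48e-07). The genotypes did not overlap for either gene.

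**Figure D4:**
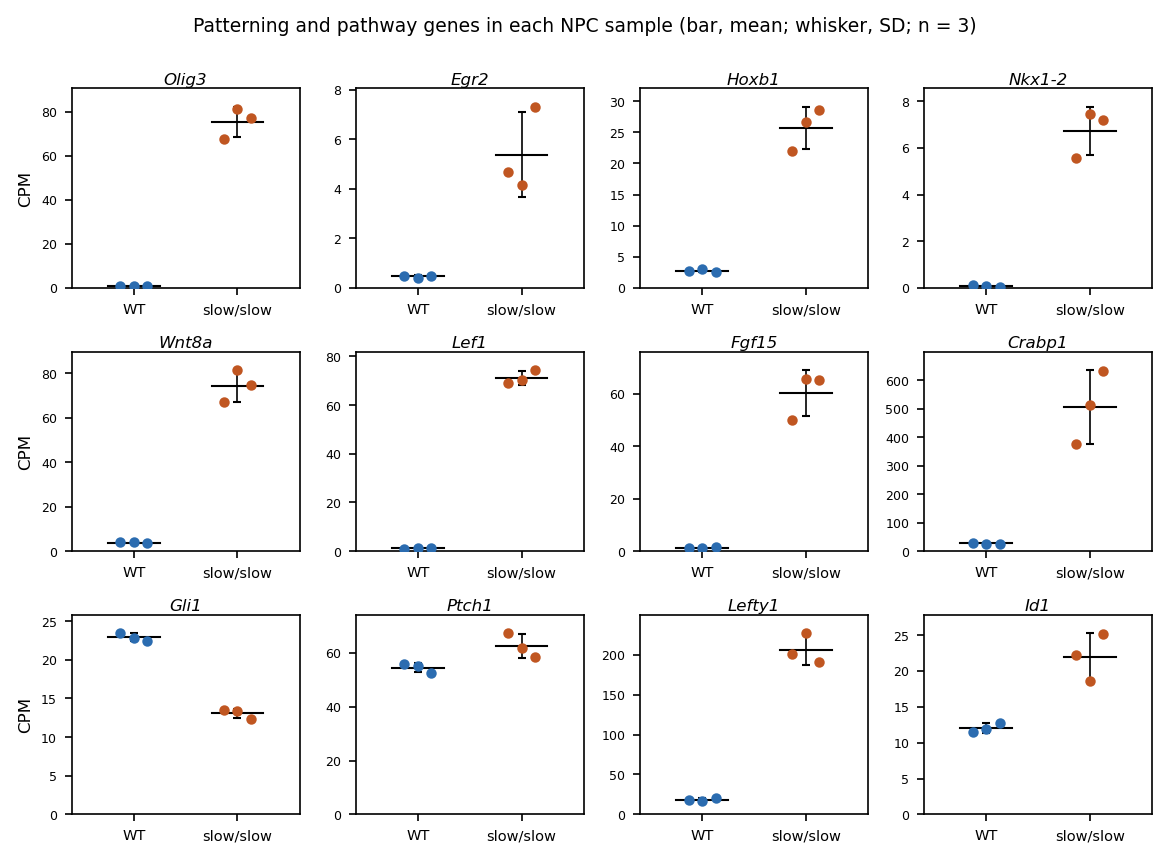
Level of 12 patterning and pathway genes in each of the 3 WT and 3 slow/slow NPC samples (points; y axes in CPM from 0, with a separate scale for each gene); bars give the mean and whiskers the SD. Olig3, Nkx1-2, Lef1 and Fgf15 stand near 0 in WT and well above it in slow/slow samples, Gli1 is lower in slow/slow samples, and Ptch1 did not pass the test.

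Retinoic acid, made by Aldh1a enzymes, carried by Crabp proteins, sensed by Rar and Rxr receptors and degraded by Cyp26 enzymes, posteriorises the neural plate. Of its list 13 of 23 were higher and 3 lower (median log2 change 0.70). The binding protein gene Crabp1 was at 27.999, 26.9 and 26.1 CPM in WT and 374, 514 and 633 CPM in slow/slow samples (log2 change 4.23 ± 0.27, FDR 3.76e-10), and Crabp2, which passes retinoic acid to its receptors, at 23.4, 19.7 and 20.8 CPM and 78.8, 107 and 119 CPM (log2 change 2.26 ± 0.25, FDR 2.91e-07). Slow/slow sample 3 was the highest and sample 1 the lowest for both. The synthesising enzyme Aldh1a1 rose from 0.133 to 1.15 CPM (log2 change 3.06 ± 0.48, FDR 2.36e-05), whereas Aldh1a2, the main enzyme of the embryo, stood at 1.81 to 2.09 CPM (log2 change 0.21 ± 0.25, FDR 0.487). Stra6, the retinol importer, rose from 7.57 to 24.3 CPM (log2 change 1.68 ± 0.27, FDR 2.58e-05). The receptor gene Rxrg rose from 0.796 to 5.06 CPM (log2 change 2.66 ± 0.54, FDR 0.000326). Rarb, both receptor and direct target, was at 5.43, 5.28 and 5.79 CPM and 9.12, 7.68 and 10.01 CPM (log2 change 0.70 ± 0.25, FDR 0.0222), and lost its call without WT 1, WT 2 or slow/slow 3 (FDR up to 0.0744). The target Cyp26a1 was at 11.8, 11.6 and 10.9 CPM and 20.7, 15.4 and 17.4 CPM and did not pass (log2 change 0.64 ± 0.40, FDR 0.175), except with the NPC samples alone, without the PSA-NCAM-positive samples or with a replicate block (FDR 3.59e-05 to 0.0055). Tgm2, a transglutaminase induced by retinoic acid in many cells, fell, from 83.6, 91.7 and 94.3 CPM in WT to 11.7, 9.498 and 10.2 CPM in slow/slow samples (log2 change -3.10 ± 0.67, FDR 0.000615). Meis2, a Hox cofactor, rose from 17.4 to 104 CPM (log2 change 2.58 ± 0.20, FDR 2.56e-09).

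Wnt pathway genes moved in both directions, with 52 tested. Among them 24 of 52 were higher and 8 lower (median log2 change 0.28). Lef1, the nuclear effector that partners beta-catenin, was at 0.998, 1.36 and 1.305 CPM in WT and 68.98, 70.4 and 74.5 CPM in slow/slow samples (log2 change 5.86 ± 0.47, FDR 5.27e-09), a close grouping in each genotype. Rspo3, a secreted Wnt amplifier, rose from 0.14 to 1.74 CPM (log2 change 3.58 ± 0.32, FDR 1.96e-08), as Wnt8a did. Wnt3a, the ligand of the dorsal midline and tail bud, overlapped between the genotypes (0.978, 1.12 and 0.825 CPM and 0.738, 1.12 and 1.33 CPM, log2 change 0.11 ± 0.22, FDR 0.704). Axin2, the standard target of beta-catenin signalling, was at 23.7, 23.2 and 20.7 CPM in WT and 29.8, 29.9 and 32.4 CPM in slow/slow samples (log2 change 0.45 ± 0.17, FDR 0.0297), and lost its call without WT 3 or slow/slow 3 (FDR up to 0.0922). Dkk3, a Dickkopf family member, fell from 29.8 to 6.35 CPM (log2 change -2.23 ± 0.10, FDR 2.64e-12), and Lrp5, a Wnt co-receptor, from 168 to 75.97 CPM (log2 change -1.14 ± 0.09, FDR 7.78e-09).

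BMP, Nodal and TGF-beta genes as a list had a median near that of all genes. Among them 21 of 49 were higher and 10 lower (median log2 change 0.05). The feedback antagonists of Nodal, Lefty1 (17.8, 16.9 and 20.6 CPM in WT and 201, 227 and 191 CPM in slow/slow samples, log2 change 3.48 ± 0.32, FDR 3.29e-08) and Lefty2 (5.804, 5.96 and 6.46 CPM and 62.02, 69.8 and 55.6 CPM, log2 change 3.36 ± 0.19, FDR 5.88e-11), were several-fold higher in each slow/slow sample. Nodal itself stood at 78.6, 75.8 and 75.7 CPM in WT and 67.3, 68.4 and 60.5 CPM in slow/slow samples and did not pass (log2 change -0.23 ± 0.11, FDR 0.0716). The ligand gene Bmp4 was lower, at 13.1, 12.1 and 11.4 CPM and 6.13, 4.22 and 5.74 CPM (log2 change -1.18 ± 0.39, FDR 0.0153), but not in the fit without slow/slow sample 2 (FDR 0.0691). Id1, a direct BMP target, was higher, at 11.4, 11.9 and 12.8 CPM in WT and 22.2, 18.6 and 25.2 CPM in slow/slow samples (log2 change 0.87 ± 0.18, FDR 0.000382). Bmp4 and Id1 thus moved apart. Id2 (12.4 to 48.4 CPM) and Id3 (10.6 to 25.4 CPM) rose with Id1, and Id4 fell (6.74 to 2.26 CPM). Follistatin (Fst), which binds activins and BMPs, rose from 2.89 to 17.1 CPM (log2 change 2.56 ± 0.28, FDR 3.05e-07), and the type I BMP receptor Bmpr1b from 0.425 to 2.38 CPM (log2 change 2.51 ± 0.37, FDR 1.37e-05). The ligand genes Tgfb1 (11.2 to 2.53 CPM) and Inhbb (18.004 to 3.597 CPM) fell, with log2 changes of -2.14 and -2.32.

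FGF signalling drives exit from naive pluripotency and later posterior neural identity. Of its list with EGF genes, 17 of 36 were higher and 8 lower (median log2 change 0.45). Fgf15, a ligand of the embryonic mid- and hindbrain, was at 1.21, 1.298 and 1.4997 CPM in WT and 50.1, 65.7 and 65.3 CPM in slow/slow samples (log2 change 5.49 ± 0.39, FDR 1.13e-09). Fgf8, the organiser signal of the isthmus and tail bud, was at 1.19, 1.09 and 1.27 CPM and 7.79, 9.31 and 6.83 CPM (log2 change 2.75 ± 0.29, FDR 1.67e-07). Fgf1 rose from 3.19 to 25.2 CPM (log2 change 2.98 ± 0.26, FDR 2.03e-08), while Fgf4, the autocrine ligand of naive cells, fell from 124 to 52.3 CPM (log2 change -1.24 ± 0.11, FDR 1.30e-08). The ligands of posterior neural tissue and of naive cells thus lay on opposite sides. The feedback inhibitor Spry4 rose from 40.6 to 81.9 CPM (log2 change 1.01 ± 0.15, FDR 1.42e-05) and Il17rd, another FGF inhibitor, from 88.03 to 323 CPM (log2 change 1.87 ± 0.34, FDR 0.000122). Egfr, the EGF receptor that neural stem cells need in culture, was at 29.4, 30.1 and 32.3 CPM in WT and 18.1, 14.6 and 14.8 CPM in slow/slow samples, without overlap and with a change just outside the threshold (log2 change -0.95 ± 0.41, FDR 0.0532). It passed under 5 other settings (log2 change -0.99 to -0.96, FDR 2.32e-09 to 0.0445), such as the NPC samples fitted alone or DESeq2. Erbb3, its relative, fell from 79.5 to 17.2 CPM (log2 change -2.21 ± 0.53, FDR 0.00146).

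Notch signalling holds progenitors back from neurogenesis through Hes genes. In its list 10 of 29 were higher and 7 lower (median log2 change 0.11). The median depended on single samples, from 0.01 without WT 3 and 0.02 without slow/slow 2 to 0.18 without slow/slow 3 and 0.19 without slow/slow 1. Dll1, the ligand presented by newborn neurons, was at 19.2, 19.3 and 18.5 CPM in WT and 40.5, 44.3 and 46.9 CPM in slow/slow samples (log2 change 1.21 ± 0.23, FDR 0.000192), and the ligand Jag1 at 7.47, 7.85 and 5.92 CPM and 23.3, 26.97 and 25.1 CPM (log2 change 1.83 ± 0.22, FDR 9.49e-07). The effector Hes3 was at 0.0832, 0.106 and 0.165 CPM and 4.32, 6.63 and 6.88 CPM (log2 change 5.60 ± 0.71, FDR 2.05e-06), and Hes5 at 0.2704, 0.438 and 0.375 CPM and 0.647, 1.24 and 1.65 CPM (log2 change 1.63 ± 0.31, FDR 0.000161), lowest in slow/slow sample 1 in both cases. Hes1, expressed in many cell types, did not differ detectably (36.2 to 36.9 CPM, log2 change 0.03 ± 0.20, FDR 0.925). The DNA-binding partner of Notch, Rbpj, fell from 439 to 214 CPM (log2 change -1.04 ± 0.08, FDR 3.61e-09), Notch1 from 82.8 to 53.7 CPM (log2 change -0.62 ± 0.08, FDR 1.96e-06), and Dner, an atypical ligand, from 3.49 to 1.098 CPM (log2 change -1.76 ± 0.29, FDR 4.36e-05), whereas the coactivator Maml2 rose from 1.16 to 4.71 CPM (log2 change 2.02 ± 0.20, FDR 8.47e-08).

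Transcripts listed for other lineages were found in both genotypes, though not all listed members. Below 1 CPM in both were Afp, Apoa1 and Cer1 of the endoderm list. So were Foxc2, Hand2, Mesp1, Mixl1, Myf5 and T of the mesoderm list, and Elf5, Krt14, Krt5 and Trp63 of the surface ectoderm list. The genes of the endoderm list summed to 5194 to 5942 CPM in the WT samples and 3397 to 4573 CPM in the slow/slow samples. This sum does not measure endoderm, since it includes genes also made by other cells, such as Apoe. In that list 8 of 21 were higher and 2 lower (median log2 change 0.04). Apoe, a lipoprotein gene of yolk sac endoderm and other cells, was at 1828, 2064 and 2063 CPM in WT and 478, 397 and 354 CPM in slow/slow samples (log2 change -2.28 ± 0.16, FDR 1.38e-09). The defining factors Sox17 (20.5, 22.2 and 18.96 CPM in WT and 23.9, 18.6 and 18.4 CPM in slow/slow samples) and Gata4 (58.95, 66.3 and 57.5 CPM and 79.6, 60.2 and 65.6 CPM) overlapped between the genotypes (FDR 0.975 and 0.588), while Cubn, the endocytic receptor of visceral endoderm, rose from 141 to 473 CPM (log2 change 1.74 ± 0.42, FDR 0.00144). Prdm1, a transcriptional repressor of endoderm and germ cells, rose from 6.26 to 19.2 CPM (log2 change 1.62 ± 0.20, FDR 1.71e-06), and Ttr, the transthyretin gene of visceral endoderm, from 0.544 to 2.06 CPM (log2 change 1.92 ± 0.50, FDR 0.003102). Of the 10 endoderm genes called, 8 thus rose, while Apoe was 1 of 2 that fell. The mesoderm and endothelium list summed to 575 to 641 CPM in the WT samples and 263 to 368 CPM in the slow/slow samples, and 6 of 20 were higher and 6 lower (median log2 change -0.44). Hand1 (41.8 to 3.77 CPM, log2 change -3.46 ± 0.51, FDR 1.10e-05), a bHLH gene of extraembryonic mesoderm and trophoblast, and Pecam1 (74.7 to 19.3 CPM, log2 change -1.95 ± 0.13, FDR 4.55e-10), which is expressed by endothelium and also by naive ESCs, were lower. Tal1, the blood and endothelial bHLH gene (0.347 to 1.51 CPM, log2 change 2.11 ± 0.27, FDR 2.40e-06), and Meox1, a homeobox gene of the somites (1.51 to 4.99 CPM, log2 change 1.72 ± 0.50, FDR 0.00655), rose. The median of this list was -0.28 without slow/slow sample 2. The surface ectoderm and trophoblast list summed to 383 to 403 CPM in the WT samples and 179 to 212 CPM in the slow/slow samples, and 2 of 13 were higher and 6 lower (median log2 change -0.56). Its members Krt18 and Krt8, simple-epithelium keratins on chromosome 15, were set apart, and Krt19 (50.8 to 20.3 CPM, log2 change -1.32 ± 0.53, FDR 0.0407) lost its call in all 6 fits that left out a sample (FDR up to 0.113). In the glial list 6 of 15 were higher and 5 lower (median log2 change -0.42), at a summed level of 105 to 116 CPM in the WT samples and 102 to 114 CPM in the slow/slow samples, and Aqp4, Olig1, Olig2 and S100b stayed below 1 CPM in both genotypes. Without slow/slow sample 3 the glial median was -0.16. How far a different share of these lineages enters the changes above was not tested.

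Proliferation genes as a list had a median near 0. Of 32 cell cycle genes 8 were higher and 6 lower (median log2 change 0.07), with Mki67 at 209, 214 and 226 CPM in WT and 216, 280.1 and 259.6 CPM in slow/slow samples, overlapping (log2 change 0.22 ± 0.16, FDR 0.263). Mki67 passed with the NPC samples fitted alone (FDR 0.0365). The D-type cyclins, which couple mitogens to the cell cycle, were among the exceptions: Ccnd1 was at 32.3, 30.9 and 29.1 CPM in WT and 141, 165 and 164 CPM in slow/slow samples (log2 change 2.35 ± 0.31, FDR 3.54e-06), Ccnd2 at 15.6, 17.9 and 14.3 CPM and 100.4, 120.1 and 118 CPM (log2 change 2.82 ± 0.11, FDR 1.01e-12), and Ccnd3 lower, at 307 to 118 CPM (log2 change -1.38 ± 0.18, FDR 3.53e-06). Ccne2 was higher too, with a log2 change of 1.54 to 1.66 over the other settings. Mycn, the Myc gene of neural progenitors, rose from 67.2 to 199.5 CPM (log2 change 1.57 ± 0.14, FDR 1.92e-08). Among p53 targets 4 of 18 were higher and 6 lower (median log2 change -0.25). Together 55.6% were called, against 55.4% of all genes tested off chromosomes 8, 15 and Y. The members named for the size of their change fell, and they do not stand for the list. Cdkn1a, the inhibitor p21, stood at 64.4, 68.5 and 64.2 CPM in WT and 32.2, 26.4 and 32.8 CPM in slow/slow samples (log2 change -1.11 ± 0.22, FDR 0.000308), Perp fell from 64.7 to 26.8 CPM (log2 change -1.27 ± 0.32, FDR 0.00214) and Mdm2 from 228 to 134 CPM (log2 change -0.77 ± 0.23, FDR 0.00714).

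Genes at 5 CPM or more off chromosomes 8, 15 and Y, called in every fit without 1 NPC sample, were then ranked. Among the 10 largest rises were Olig3, Nkx1-2, Lef1, Hes3, Fgf15, Sp8 and Tcfap2b, described above. They also held Rfx4, a winged-helix factor of the neural tube (0.358 to 13.3 CPM, log2 change 5.23 ± 0.40, FDR 2.74e-09), and Bcl11a, a zinc-finger gene of neurons (0.247 to 8.52 CPM, log2 change 5.09 ± 0.47, FDR 3.18e-08). Of these 9, all except the ligand Fgf15 encode transcription factors. The 10 largest falls were of other kinds. Asb9 was at 5.97, 4.62 and 5.17 CPM in WT and 0.0518, 0 and 0 CPM in slow/slow samples, with at most 4 reads in a slow/slow sample. The imprinted gene Mest fell from 77.05 to 3.35 CPM (log2 change -4.54 ± 0.99, FDR 0.000663), Fbxo36 from 10.5 to 0.517 CPM (log2 change -4.34 ± 0.57, FDR 3.02e-06), and Oasl2, an interferon-inducible gene, from 27.99 to 1.57 CPM (log2 change -4.14 ± 0.64, FDR 2.12e-05). Aqp3, a water and glycerol channel, stood at 36.7, 38.5 and 38.2 CPM and 2.38, 2.196 and 3.15 CPM (log2 change -3.88 ± 0.54, FDR 5.95e-06), and Aurkc, the germ-line Aurora kinase, at 17.8, 17.4 and 18.4 CPM and 1.57, 1.46 and 1.13 CPM (log2 change -3.67 ± 0.30, FDR 8.26e-09). The others were 4930528F23Rik, Gm949, Fbxo40 and Hrc, with log2 changes between -4.65 and -4.20. Annotated neighbours on the other strand overlap 20% or more of the exonic length of Mest, Ccnd1, Fgf15, Dll1, Tgm2, Hes5, Rarb, Gbx2, Prdm8, Shh and Ptbp1 (20.6% for Dll1 to 43.5% for Gbx2), and such overlaps reach 13.7% in Lef1, 16.6% in Nkx1-2 and 19.2% in Nefm. The sources used here do not state that counting used the strand, so reads from these stretches cannot be told apart.

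Regulators of splicing were examined because a slow polymerase may act on exons beside any change in the splicing factors. Of the listed genes, 41 of 57 were higher and 2 lower (median log2 change 0.57), and the summed level was 8767 to 9204 CPM in the WT samples and 14038 to 14611 CPM in the slow/slow samples. The rise took in general SR and hnRNP proteins, which bind exonic enhancers and silencers: Srsf3 was at 84.9, 68.8 and 72.3 CPM in WT and 173, 186 and 174 CPM in slow/slow samples (log2 change 1.24 ± 0.15, FDR 1.20e-06), and Hnrnpa2b1 rose from 757 to 1521 CPM (log2 change 1.01 ± 0.11, FDR 2.55e-07). Ptbp1, the repressor of neuronal exons, rose from 633 to 934 CPM (log2 change 0.56 ± 0.12, FDR 0.000706), and Ptbp2, its neuronal relative, from 44.7 to 96.2 CPM (log2 change 1.1 ± 0.08, FDR 1.62e-09). Srrm4, the activator of neuronal microexons, was low, at 2.08, 1.68 and 1.65 CPM and 3.403, 4.18 and 5.03 CPM (log2 change 1.22 ± 0.28, FDR 0.00104). Of the neuronal Elav-like proteins, Elavl4 rose from 1.0003 to 6.21 CPM (log2 change 2.63 ± 0.30, FDR 6.65e-07) and Elavl2 from 9.32 to 22.1 CPM (log2 change 1.25 ± 0.18, FDR 1.23e-05), and Celf6 rose from 0.343 to 1.203 CPM (log2 change 1.83 ± 0.34, FDR 0.000131). Mbnl2, which promotes adult exon patterns, fell, from 104, 91.7 and 91.5 CPM in WT to 32.1, 32.2 and 30.6 CPM in slow/slow samples (log2 change -1.60 ± 0.36, FDR 0.000859), while Mbnl1 rose from 8.23 to 17.5 CPM (log2 change 1.09 ± 0.13, FDR 1.34e-06).

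Chromatin regulators shifted up to a smaller extent and cytoskeletal genes slightly down. Of the chromatin list 41 of 77 were higher and 12 lower (median log2 change 0.30). Kdm2b, which recruits Polycomb complexes to CpG islands, rose from 139 to 300.1 CPM (log2 change 1.11 ± 0.23, FDR 0.000335) and Chd3, a remodelling helicase, from 36.6 to 80.9 CPM (log2 change 1.14 ± 0.12, FDR 1.39e-07), while Ezh1, the Polycomb methyltransferase of resting cells, fell from 82.999 to 37.1 CPM (log2 change -1.16 ± 0.20, FDR 6.50e-05). In the cytoskeleton and adhesion list 14 of 58 were higher and 21 lower (median log2 change -0.11). Dnm1, a dynamin, fell from 43.01 to 9.89 CPM (log2 change -2.12 ± 0.10, FDR 1.01e-11), Mapt, the tau gene, from 4.18 to 1.05 CPM (log2 change -2.02 ± 0.16, FDR 5.61e-09), and Epb4.1l1, a band 4.1 protein, from 89.3 to 31.6 CPM (log2 change -1.50 ± 0.17, FDR 3.82e-07), whereas Ank2, an ankyrin, rose from 10.1 to 23.6 CPM (log2 change 1.23 ± 0.10, FDR 3.61e-09).

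Exon skipping was compared in the same 6 samples. Percent spliced in (PSI), the share of transcripts that include an exon, was taken from the deposited splicing table. Exons counted as changed when the mean PSI differed by more than 10 points and the posterior probability of that direction, from the inclusion and exclusion reads, was over 0.95. By this rule 665 of 22735 exons tested (2.93%) differed between the genotypes on all chromosomes and 577 of 20542 (2.81%) off chromosomes 8, 15 and Y, 159 (0.774%) more included and 418 (2.03%) less included in slow/slow NPCs. Skipping was thus the commoner direction. Just inside the threshold lay exons of Cltc (-10.047 points) and Akap8l (10.053 points), and just outside it exons of Amph (-9.987 points) and Zfp318 (9.997 points).

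For 14 of 21 exons looked up, an exon of the same length with 1 or both flanking introns of the same length was found in GENCODE M21 transcripts (GRCm38), and 6 are shown to make clear what is skipped or gained. Capitals mark the alternative exon and lower case the last and first 15 bases of its neighbours in the mRNA, 5′ to 3′. The first 3 were less included in slow/slow NPCs (2 microexons of Nav2 and Baz2b and the exon of Bptf with the largest fall) and the last 3 more included.
Nav2, 9 nt: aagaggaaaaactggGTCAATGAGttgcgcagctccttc
Baz2b, 27 nt: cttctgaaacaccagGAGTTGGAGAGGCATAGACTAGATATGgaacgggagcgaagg
Bptf, 189 nt: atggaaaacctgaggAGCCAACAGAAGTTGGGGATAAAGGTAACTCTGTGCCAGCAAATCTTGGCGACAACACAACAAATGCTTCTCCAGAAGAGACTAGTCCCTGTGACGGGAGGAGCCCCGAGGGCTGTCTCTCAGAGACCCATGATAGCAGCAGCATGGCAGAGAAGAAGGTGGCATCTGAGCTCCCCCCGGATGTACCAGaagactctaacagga
Exoc1, 45 nt: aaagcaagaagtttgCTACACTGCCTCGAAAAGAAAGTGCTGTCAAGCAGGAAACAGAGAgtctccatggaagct
Tpm1, 76 nt: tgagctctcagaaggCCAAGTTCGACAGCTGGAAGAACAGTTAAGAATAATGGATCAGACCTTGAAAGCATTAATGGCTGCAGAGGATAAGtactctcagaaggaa
Pbrm1, 156 nt: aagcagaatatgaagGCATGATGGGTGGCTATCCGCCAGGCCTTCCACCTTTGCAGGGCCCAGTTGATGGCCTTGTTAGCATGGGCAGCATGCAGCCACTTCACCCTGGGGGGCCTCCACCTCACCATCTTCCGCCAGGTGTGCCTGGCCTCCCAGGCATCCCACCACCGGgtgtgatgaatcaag
All of these except the Tpm1 exon are multiples of 3 nt in length, and none of the 6 holds an in-frame stop codon in its matched transcript. The Tpm1 exon is 1 of a pair of mutually exclusive exons.

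The largest falls in inclusion were in a varied set of genes. In Bptf, the histone-reading subunit of the NURF remodeller, the 189 nt exon at chr11:106956316-106956504 (mm9, minus strand) had a PSI of 86.8, 88.6 and 88.9% in the WT samples and 12, 10.3 and 18.4% in the slow/slow samples, on 161 to 336 reads per sample. A second Bptf exon, of 174 nt at chr11:106905806-106905979, went from 76.6% ± 4.84 to 42.3% ± 1.82. In both cases the genotypes did not overlap, and the smaller exon moved by -34.3 points against -74.5. Cblb, a ubiquitin ligase of receptor tyrosine kinases, lost inclusion of a 132 nt exon (chr16:52186462-52186593), from 85.2, 88.4 and 91.5% to 27.9, 38.1 and 37.7%. A 24 nt microexon of the kinase gene Csnk1g3 was at 69.4, 71.8 and 69.1% in WT and 18.5, 16.96 and 13.5% in slow/slow samples. Nfya, the DNA-binding subunit of the CCAAT factor NF-Y, had an 81 nt exon (chr17:48538310-48538390) at 87.6, 92.4 and 86.5% and 36.2, 38.1 and 37.1%. All these exons were included in most WT transcripts and in a minority of slow/slow ones. Ktn1 (72 nt, 72.3% ± 2.64 to 19.9% ± 3.56), a kinesin-binding protein of the endoplasmic reticulum, Dock9 (78 nt, 63.6% ± 2.96 to 16.9% ± 1.995), an activator of Cdc42, and Epb4.1l3 (117 nt, 82.2% ± 3.08 to 36.7% ± 0.67), a band 4.1 protein, followed. The 9 nt Nav2 microexon (chr7:56830617-56830625), in a neuron navigator gene, was at 89.5, 95.9 and 95.05% in WT and 57.8, 40.2 and 43.7% in slow/slow samples, on 27 to 117 reads per sample, and slow/slow sample 1 was nearest to WT.

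Among exons gained in slow/slow NPCs, a 156 nt exon of Pbrm1 (chr14:31927035-31927190), the polybromo subunit of the PBAF remodeller, moved most. Its PSI was 43.8, 43.3 and 43.02% in the WT samples and 92.04, 93.6 and 89.5% in the slow/slow samples, on 169 to 700 reads. The Tpm1 exon (chr9:66880273-66880348), in the tropomyosin gene, was at 28.7, 30.1 and 29.1% in WT and 71.8, 77.9 and 74.8% in slow/slow samples, on 1923 to 4552 reads, the deepest of the exons named for the size of their change. Replicates lay within a few points of each other for both. Exoc1, a subunit of the exocyst tethering complex, had a 45 nt exon (chr5:76986844-76986888) at 2.73, 4.51 and 4.92% in WT and 48.8, 40.0 and 48.6% in slow/slow samples. It was nearly absent from WT NPCs. Ssbp3, a partner of LIM-homeodomain complexes (81 nt, 31.6% ± 1.36 to 70.9% ± 3.01), D19Wsu162e (48 nt, 47.7% ± 3.29 to 85.7% ± 3.64), Golga4, a golgin (65 nt, 11.9% ± 2.19 to 48.4% ± 5.64), and Rragb, a Rag GTPase of the mTORC1 pathway (84 nt, 35.7% ± 4.03 to 70.3% ± 4.22), gained inclusion too.

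**Figure D5:**
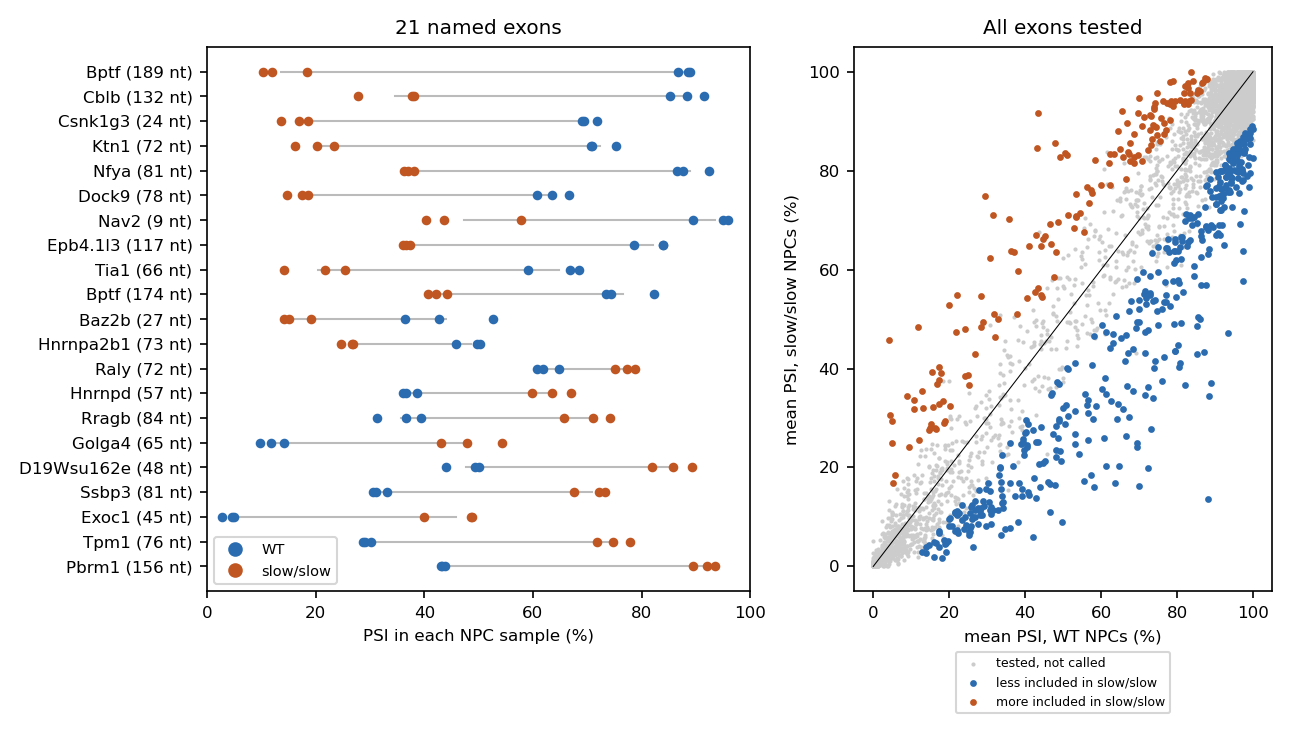
Left, PSI (percent) in each NPC sample of 21 named exons, ordered by the change, with grey lines joining the genotype means; right, mean PSI of every exon tested off chromosomes 8, 15 and Y in WT (x axis) against slow/slow NPCs (y axis), with changed exons coloured. The genotypes do not overlap for any of the 21 exons, but this was required of the exons named for the size of their change. More coloured points lie below the diagonal (418) than above it (159).

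Exons of splicing regulators and chromatin genes were looked at by list. In the splicing regulators 3 of 77 tested exons were more and 4 less included. They held a 66 nt exon of Tia1, which promotes use of weak splice sites (64.8% ± 4.96 to 20.4% ± 5.67), a 73 nt exon of Hnrnpa2b1 (48.6% ± 2.38 to 26.04% ± 1.21), a 57 nt exon of Hnrnpd (37.1% ± 1.41 to 63.5% ± 3.56) and a 72 nt exon of Raly, an hnRNP C-like protein (62.4% ± 2.09 to 77.1% ± 1.899). The first and second lost inclusion and the other two gained it. In the chromatin list 2 of 412 exons were more and 14 less included, in 12 genes that besides Bptf and Pbrm1 held Baz2b (27 nt, 42.7, 52.6 and 36.5% in WT and 15.1, 14.1 and 19.1% in slow/slow samples), Trrap, Setd5 and Dnmt3b. In the cytoskeleton and adhesion list 11 of 282 exons were more and 22 less included, in 24 genes. Among them were exons of Numb, Ank2, Dnm1, Enah and the cytoskeletal linker Macf1, which also stood in the chromatin list. Over all 20542 exons tested off chromosomes 8, 15 and Y, 0.774% were more and 2.03% less included. These 3 lists were chosen with earlier results of these data known, so their counts only describe them. No exon of the forebrain, dorsal, ventral or Hox lists was among those tested.

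The length and starting level of the exons were then described. The 418 less included exons, in 388 genes, had a median length of 102 nt and a median PSI of 73.8% in WT NPCs, and 33 of them (7.9%) were microexons of up to 27 nt. The 159 more included exons, in 153 genes, had medians of 80 nt and 55.4%, with 5 microexons (3.1%). Among 1306 exons with a PSI between 10% and 90% that were not called changed, the median length was 99 nt and 2.5% were microexons. Exons whose length is a multiple of 3 made up 61.7%, 59.1% and 51.8% of these 3 sets. The median upstream intron was 1190 nt before less included and 1838 nt before more included exons, against 1774 nt in the third set. These figures describe the called exons, and no test was applied to them.

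The same exons were followed at other stages, which use separate samples. In ESCs 329 of the 418 less included exons were measured, and 271 of them had a lower mean PSI in slow/slow cells, with a median difference of -4.20 points, and 52 passed the same rule in that direction. Of 123 more included exons measured in ESCs, 108 had a higher mean PSI (median 6.17 points) and 35 passed. Over all 17347 exons measured at both stages the median difference in ESCs was 0.00 points, and 62 passed as more and 77 as less included. In neurons the directions were less alike: 165 of 360 less included and 77 of 136 more included exons kept their direction, with 34 and 19 passing that way and 59 and 12 passing the opposite way. Over all 18533 exons measured in NPCs and neurons, 342 passed as more and 174 as less included in slow/slow neurons. Calls in neurons thus leaned to inclusion in general. The Pbrm1 exon was at 55.03% and 84.1% in WT and slow/slow ESCs and at 33.9% and 64.5% in neurons. The Bptf exon of 189 nt was at 64.98% and 19.8% and at 74.2% and 51.3%. The Ktn1 exon, by contrast, was at 28.4% and 22.7% in ESCs and at 38.7% and 64.9% in neurons, where the genotypes had changed places.

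The level of the genes with a changed exon was then looked at. Of 515 such genes 58.8% passed the expression test, 176 higher and 127 lower, against 58.0% of the 6394 genes with an exon tested. Bptf and Pbrm1 were both among the risers, Bptf from 199.9 to 290.4 CPM (log2 change 0.54 ± 0.09, FDR 4.75e-05) and Pbrm1 from 63.5 to 118 CPM (log2 change 0.90 ± 0.12, FDR 4.99e-06), while Epb4.1l3 (28.6 to 30.8 CPM, log2 change 0.11 ± 0.21, FDR 0.685) and Exoc1 (39.8 to 43.6 CPM, log2 change 0.13 ± 0.06, FDR 0.0776) did not pass.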

How the data were processed

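Poly(A)+ RNA was sequenced by the study, mapped to mm9 and quantified with vast-tools. The authors deposited raw counts per gene and, in a splicing table, PSI as a percent with junction read numbers and quality scores per sample. Their notes name bcl2fastq 2.17.1.14 and edgeR. Deposited RPKM means, log2 fold and FDR columns of the authors' own comparisons, and a list of their splicing results were not used. Of 22667 genes listed, 1114 had no values, and 0 per-sample columns were unused. Here, all 24 samples entered 1 model of 8 groups in edgeR 4.0.16 (TMM, filterByExpr, quasi-likelihood F test, 16 residual degrees of freedom). Chromosomes and overlaps came from GENCODE M21 (GRCm38), matched for 94.9% of genes with counts; 308 tested genes without a match were kept in the counts off chromosomes 8, 15 and Y. Exons needed the study's coverage and junction balance scores in all 6 samples; the balance score was blank for microexons and was not applied to them. Beta posteriors of the 3 replicates (uniform prior) were pooled and refitted. The named genes are the 4 largest called changes without overlap of each list, at 1 CPM or more in a genotype. To these come the 10 largest called changes each way at 5 CPM or more, and 40 genes of interest. The 10 each way also had to be called in each of the 6 fits without 1 NPC sample. The named exons are the 8 largest changes each way without overlap and with at least 20 reads per sample, and list exons. Others were named after their values were seen. Some items that this rule covers are not reported here. The members and all lists were chosen with earlier results of these data known. In simulated counts of 16540 genes, 50 genes per fold and direction were changed, all above a mean of 50 counts. The 4-fold changes were called in 100% and the 2-fold changes in 78% to 82% of them. In simulated reads of 22735 exons, changes of 20 points were set in 50 exons per direction, all with mid-range PSI in WT. Of these, 86% to 88% were called. Calling rates at lower counts or near-full inclusion were not measured. Alternatives used other scalings, filters, sample sets, DESeq2 1.42.0, limma 3.58.1 on exon logits, a replicate block and fits without each sample.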

Additional observations from a re-analysis of the deposited data

Results flagged for a closer look

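For 12 genes the slow/slow effect in NPCs was compared with that in ESCs by the interaction term of the edgeR model, and 9 differed at an FDR under 0.05, against 4091 of 16627 genes (24.6%). The fall of Nanog was larger in NPCs, with a difference of -1.41 on the log2 scale between the effects (FDR 4.12e-05) and a log2 change in ESCs of -0.18 ± 0.14. The slow/slow effect was more positive in NPCs for Fgf5 (3.28, FDR 1.69e-05), Olig3 (2.82, FDR 0.0149), Nr2f1 (2.75, FDR 7.59e-06), Crabp2 (2.03, FDR 0.00156) and Nes (0.79, FDR 0.00417). For Fgf5 and Nr2f1 the difference exceeded the log2 change in NPCs, so that neither rose in slow/slow ESCs. Olig3 was already higher in slow/slow ESCs, at 2.498 CPM ± 0.206 against 0.174 CPM ± 0.0279 in WT. The gain was smaller in NPCs for Lefty2 (-1.11, FDR 0.00298) and T (-0.97, FDR 0.0264). Gli1 changed direction, from a log2 change of 1.37 ± 0.10 in ESCs to -0.81 in NPCs (difference -2.18, FDR 2.50e-09). The difference did not pass the threshold for Pou5f1, Pax6 or Egfr, although that of Pax6 passed with a replicate block (0.96, FDR 0.0374) and that of Egfr with ESC and NPC samples alone (0.73, FDR 0.00112).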

How the results depend on the processing

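The count of 9423 genes ranged from 9291 to 9577 under other scalings, no count filter and DESeq2, was 8381 off chromosomes 8, 15 and Y, and was 11600 and 11796 with the NPC samples alone and without PSA-NCAM-positive samples. A 2-fold minimum left 3569 genes, 41.7% of them higher in slow/slow NPCs, against 51.7% of the 9423. Leaving out 1 sample at a time gave 8363 to 8635 genes and 680 to 714 exons. A threshold of 15 points left 405 of 665 exons; limma gave 518 and no balance filter 798. The interaction with ESCs rose from 4091 to 7534 genes with ESC and NPC samples alone. Same-numbered samples did not deviate together (correlations of -0.084, -0.049 and -0.022, with no WT sample closest to its own number), so the replicate block is only an alternative: it gave 10367 genes, 655 exons by limma and an interaction in 5429 genes. The median over all genes tested moved to between -0.03 and -0.01 (-0.0174, -0.0276, -0.0081, -0.0084 and -0.0175 with DESeq2 size factors, upper-quartile scaling, NPC samples alone, no PSA-NCAM-positive samples and DESeq2), the BMP, Nodal and TGF-beta median to -0.0348 and, without WT 2, -0.0026 (up to 0.1628 without another sample), and the endoderm median to -0.0014 and, without slow/slow 1, -0.1057 (up to 0.1535), the values given first with NPC samples alone. Genes that were not called and lay near 0 changed sign: Foxa2 (0.01, 0.0146 and 0.0319, down to -0.1453 otherwise) and Sox17 (0.053, 0.0562 and 0.0635, down to -0.1381 otherwise) without WT 2, slow/slow 2 or slow/slow 3, and Wnt3a (-0.0755, up to 0.3431 otherwise) without slow/slow 3; the cause was not tested. Of 140 named genes, 9 lost their call in some of these 6 fits, including Mbp in 1 (FDR 0.0506), and Axin2 also with upper-quartile scaling. The 10 largest rises and 10 largest falls could not lose theirs, since keeping the call was required when they were chosen. Uncalled genes passed under other settings: Sox2 under 6, Egfr under 5, Cyp26a1 and Polr2a under 3, Ptch1 under 2, and Mki67 and Pou5f1 under 1, in all cases including the NPC samples alone. The order of the highest list medians also depends on the setting: midbrain and hindbrain stood at 1.93 and neural progenitor genes at 1.92, but at 1.7836 and 1.9247 without WT 1. The 22 named exons kept direction and call in these 6 fits and with limma. Lists with many members under 1 CPM are limited by depth.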
